A study of Mus musculus with 206 samples.

Results

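The Hox cluster genes are the 39 protein-coding mouse genes named Hoxa, Hoxb, Hoxc or Hoxd with a number, taken by name from the GENCODE M21 annotation of mm10 among 21951 protein-coding genes. The mark measured was H3K27ac, an acetylation of histone H3 found where promoters and enhancers are in use. It was measured in NeuN+ nuclei, which are neuronal, of wild type C57BL/6NTac mice. MOWChIP-seq, a chromatin immunoprecipitation in a microfluidic chamber, was run on about 10000 nuclei per library, with 1 library per animal and brain region. Adults were in 4 groups: MOR-LPS and MOR-SAL mice had morphine through the dam (10 mg/kg/day) and then as pups (10 mg/kg, 2 injections a day, postnatal days 1 to 14), and SAL-LPS and SAL-SAL mice had saline on the same schedule. As adults, MOR-LPS and SAL-LPS mice received lipopolysaccharide (LPS, a bacterial cell wall product), MOR-SAL and SAL-SAL mice received saline, and brains were taken 2 hours later. Pups of all groups were cross-fostered at birth. The prefrontal cortex (PFC), hippocampus, hypothalamus and striatum of 72 animals gave 174 peak lists, of which 2 in the hippocampus were identical and were counted as 1, leaving 173. The expression of the Hox genes was not measured in these data, so the values below are about acetylation and not about silence of transcription. The nuclei were measured in bulk, so fewer nuclei with the mark and less of it per nucleus cannot be told apart. The sort was checked by the lists themselves: of 6 neuron markers 1 to 6 were in the top list of all libraries that had one, except PFC MOR-SAL male 13-1 with 0. Markers of oligodendrocytes, which the sort should remove, ran from 0 to 7 of 7 over the same libraries, and their part in the results was not tested.

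Hox genes encode homeodomain transcription factors that give cells their position along the body from head to tail. Within a cluster the genes lie in the order of the levels at which they are used, from paralog group 1 at the front to group 13 at the rear. Expression in the embryonic nervous system is known to stop within the hindbrain, with Hoxa2 reaching furthest forward, and the forebrain develops without it. Where the clusters are unused they are a textbook target of Polycomb repressors, and TALE proteins (Pbx, Meis and Pknox) are partners with which Hox proteins bind DNA.

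A gene was counted as marked where a peak overlapped the 1 kb to either side of an annotated transcription start. This was done in the whole list of a library and in its top list, the 10000 peaks of highest −log10 p. The annotated starts of a gene can lie far apart: the longest Hoxa3 transcript starts between Hoxa6 and Hoxa7.

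The sequences of 4 peak intervals carry the results below: the leading promoter interval of the 1 list with nearly all Hox genes marked (Hoxa13), the leading one of the list with a few front members marked (Hoxb2), an interval shared by 2 hypothalamus lists (Hoxd3), and the only interval inside the clusters that recurred across brain regions in the remaining 171 lists (Hoxa7). Each was read from GRCm38 (mm10) on the strand of its gene, with CG dinucleotides in capitals, except that the Hoxa7 bases are all in capitals because all are common to 11 of 12 peaks.
Hoxa13: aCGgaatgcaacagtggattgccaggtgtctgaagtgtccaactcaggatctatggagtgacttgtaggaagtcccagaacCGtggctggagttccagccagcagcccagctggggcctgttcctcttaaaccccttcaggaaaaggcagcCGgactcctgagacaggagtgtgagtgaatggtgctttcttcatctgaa
Hoxb2: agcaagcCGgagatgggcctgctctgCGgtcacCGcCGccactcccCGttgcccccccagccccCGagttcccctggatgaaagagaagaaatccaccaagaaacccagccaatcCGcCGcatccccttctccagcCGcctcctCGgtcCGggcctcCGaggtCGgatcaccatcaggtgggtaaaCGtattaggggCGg
Hoxd3: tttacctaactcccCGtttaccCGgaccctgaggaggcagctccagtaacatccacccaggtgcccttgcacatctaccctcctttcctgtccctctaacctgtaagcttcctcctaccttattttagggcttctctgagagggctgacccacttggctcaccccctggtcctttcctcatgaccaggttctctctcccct
Hoxa7: ACAGTCCTCATCCCAGCAGAGATCTAG
The Hoxa13 stretch is chr6:52261808-52262007 on the minus strand, 928 bp upstream of the gene's start and outside any annotated gene, and holds 3 CG. The Hoxb2 stretch is chr11:96352019-96352218 on the plus strand, reaches into coding sequence of Hoxb2 and holds 15 CG. The Hoxd3 stretch is chr2:74739209-74739409 on the plus strand, lies between exons of Hoxd3 and of the overlapping gene model Gm28230, 210 bp from a start, and holds 2 CG. The Hoxa7 stretch is chr6:52221478-52221504 on the minus strand, in an intron of the longest annotated Hoxa7 transcript, 350 bp from its start and 2905 bp upstream of the RefSeq start of the gene.

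Hox promoters were almost never marked in any brain region. In the top list, 0 of the 39 genes were marked in 41 of 42 PFC libraries, 43 of 44 hippocampus libraries, 40 of 41 hypothalamus libraries and 45 of 45 striatum libraries. The 3 exceptions had 36 genes (the library labelled PFC MOR-SAL male 13-1), 3 genes (hypothalamus SAL-LPS male 1-0) and 1 gene (hippocampus MOR-LPS male 14-2). Of all protein-coding genes, the median library marked 16.7% (PFC), 9.74% (hippocampus), 12.8% (hypothalamus) and 11.3% (striatum) in the same lists.

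Whole lists added few members. At least 1 Hox gene was marked in 9 of 43 PFC libraries (20.9%, exact 95% interval 10.0 to 36.0%), 5 of 44 hippocampus libraries (11.4%, 3.79 to 24.6%) and 4 of 41 hypothalamus libraries (9.76%, 2.72 to 23.1%). In the striatum the count was 0 of 45 (exact 95% interval 0 to 7.87%). The mean number of marked members was 1.05 ± 5.48 for 43 PFC libraries (SD), 0.114 ± 0.321 for 44 hippocampus libraries, 0.171 ± 0.667 for 41 hypothalamus libraries and 0 for 45 striatum libraries. Without PFC 13-1 the PFC mean was 0.214 ± 0.470 (n = 42), and without hypothalamus 1-0 the hypothalamus mean was 0.0750 ± 0.267 (n = 40). PFC libraries were made with another kit than those of the other brain regions, so kit and PFC cannot be told apart. Intervals and limits here cover counting error over libraries only.

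Long lists held few Hox genes too; the length of a list stands here for its depth. In the 23 libraries of 100000 or more peaks, 38.2 to 56.0% of all protein-coding genes were marked, and no library had more than 1 of the 39 Hox genes. In the 13 libraries under 25000 peaks, a median of 9.04% of all genes were marked, and 2 libraries had a Hox gene: PFC 13-1 with 36, and PFC SAL-SAL female 9-2 with Hoxc10 at rank 1071 of only 4371 peaks.

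**Figure D1:**
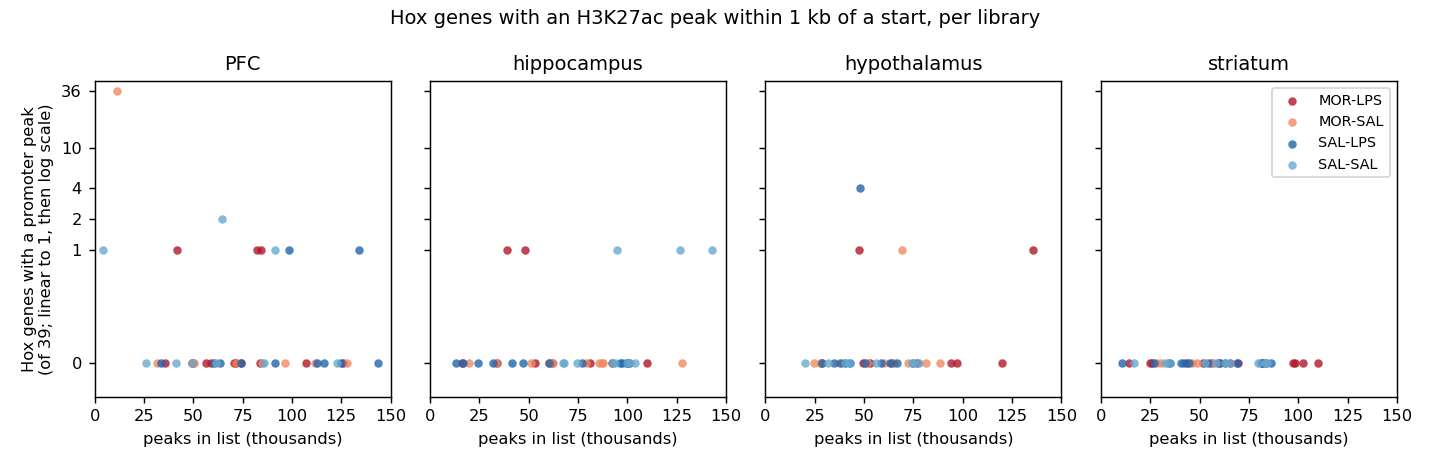
Number of the 39 Hox genes with a peak within 1 kb of a start (y axis, linear to 1 and log above) against the number of peaks in the list (x axis, in units of 1000), 1 point per library, by brain region and coloured by treatment. Most points lie at 0 at every list length; PFC MOR-SAL male 13-1 has 36 genes with 11306 peaks and hypothalamus SAL-LPS male 1-0 has 4 genes with 48152 peaks.

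Few peaks lay inside the clusters, and the stretch of few peaks ran past their edges. The 4 clusters span 491.8 kb: Hoxa on chromosome 6 (105.3 kb), Hoxb on 11 (173.9 kb), Hoxc on 15 (115.8 kb) and Hoxd on 2 (96.8 kb). With PFC 13-1 and hypothalamus 1-0 left out, the other 171 lists together held 11249673 peaks, of which 47 lay inside a cluster, in 24 lists. The 200 kb to either side of the clusters held 5613 peaks in the same lists, in all 171 of them. Per 100 kb and library this is 0.0559 peaks inside and 2.05 in the flanks. Inside and flank densities were 0.0354 and 5.76 for Hoxc, 0.0235 and 0.961 for Hoxb, 0.0785 and 1.14 for Hoxd, and 0.111 and 0.344 for Hoxa. The flank peaks were gathered in part of the flanks. By 5 kb bins, the median flank bin had a peak in 0.0% of lists at Hoxa and Hoxb, the same as inside. It was 2.92% at Hoxc and 0.877% at Hoxd, against 0.0% and 0.292% inside. The first 5 kb bin outside with a peak in at least 5% of lists, a level chosen after seeing the profile, lay 90 kb from the lower edge of Hoxa, 130 kb from that of Hoxb, 100 kb from that of Hoxc and 85 kb from that of Hoxd. From the upper edges it lay 179.7, 86.1, 49.2 and 18.2 kb away in the same order of clusters. The highest bin inside Hoxa, at 7.02% of lists, was itself above the 5% level.

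**Figure D2:**
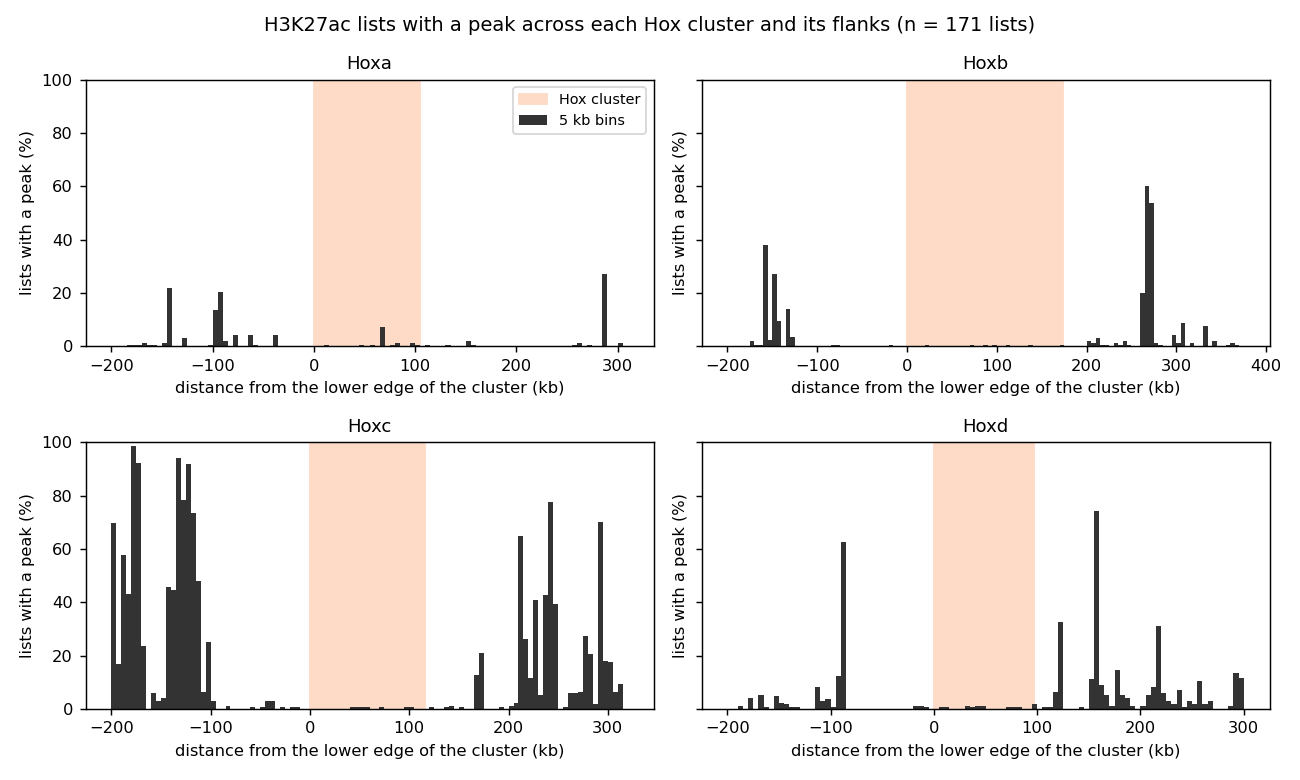
Share of 171 lists with a peak in each 5 kb bin (y axis, %) by distance from the lower edge of each Hox cluster (x axis, kb), with the cluster shaded; PFC MOR-SAL male 13-1 and hypothalamus SAL-LPS male 1-0 are left out. No bin inside Hoxb or Hoxc had a peak in more than 0.585% of lists and none in Hoxa or Hoxd in more than 7.02% and 1.75%, while bins in the flanks reached 98.8% near Hoxc and 26.9% near Hoxa.

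The genes next to the clusters divided in the same way. Beside Hoxc, Cbx5, which encodes a heterochromatin protein, was marked in 142 of the 171 lists, Smug1, a DNA glycosylase, in 141 and Calcoco1, a coiled-coil coactivator, in 128. Skap1 (an adaptor protein), beside Hoxb, was marked in 75. Beside Hoxd, Mtx2 (mitochondrial import) was marked in 125 and Lnpk (endoplasmic reticulum shape) in 107, and beside Hoxa, Hibadh (valine breakdown) in 87 and Skap2 (a relative of Skap1) in 72. The 2 homeobox neighbours were marked like the Hox genes: Evx1 in 1 and Evx2 in 0 lists. Ttll6, a tubulin modifying enzyme beside Hoxb, was also marked in 0.

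The deposited consensus regions, which the authors built for each brain region from its libraries, were also missing from the clusters. They held 0 regions inside the 4 clusters in each of the 4 brain regions. The authors kept only peaks found in a large share of the samples, so this count follows from the lists above and is not separate evidence. In the 200 kb flanks the PFC list held 8 of its 18272 regions and the hippocampus list 6 of 16201. The hypothalamus list held 7 of 13788 there, and the striatum list, the longest, 32 of 60013.

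Hox starts are rich in CG dinucleotides, as are those of many housekeeping and developmental genes. Within 1 kb of a start the Hox genes had a median of 100 CG dinucleotides (44 for Hoxc6 to 211 for Hoxd8), against a median of 67 over all protein-coding genes. Of the 9496 other genes with at least 77 CG, the lower quartile of the Hox genes, the median whole list marked 64.0% (PFC), 53.7% (hippocampus), 49.0% (hypothalamus) and 49.1% (striatum). Over the 171 lists, 33 of 39 Hox genes were never marked, against 542 of those 9496 genes (5.71%) and 26.5% of all protein-coding genes. The lists left out were chosen by their Hox count. Over all 173 lists 3 of 39 Hox genes were never marked (Hoxa11, Hoxc5 and Hoxd11), against 345 of the 9496 genes (3.63%) and 24.7% of all protein-coding genes.

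The other 6 Hox genes were marked at least once in those 171 lists. Hoxa7 was marked in 12, and Hoxa3, Hoxa5, Hoxb8, Hoxc10 and Hoxd3 in 1 each. Hoxa5 and Hoxb8 came from PFC SAL-SAL female 4-1 (ranks 56473 and 64417 of 64743 peaks), Hoxa3 from PFC MOR-LPS male 17-1 (rank 21229 of 41868, at that far start), Hoxd3 from hypothalamus MOR-SAL female 18-0 (rank 20692 of 69343) and Hoxc10 from PFC 9-2. None of the first 4 was in a top list, and the list of PFC 9-2 is too short to have one.

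Hoxa7, a member of the middle of its cluster that acts in the trunk, was the only Hox gene whose mark recurred. The 12 peaks came from 5 PFC, 5 hippocampus and 2 hypothalamus libraries and from 0 striatum libraries. All lay between positions 52221117 and 52221755 of chromosome 6 and were 166 to 638 bp wide, and 11 of the 12 share the 27 bases printed above. Their fold enrichment over local background was 3.92 to 7.31 (median 4.62) and their −log10 q was 3.22 to 8.00. In the hippocampus the ranks were 2372 of 39154 peaks in MOR-LPS male 14-2, 24951 of 48100 in MOR-LPS female 16-4, 44251 of 94654 in SAL-SAL female 4-1, 61992 of 143124 in SAL-SAL male 1-1 and 45963 of 126570 in SAL-SAL male 3-4. So 14-2 alone had Hoxa7 in its top list, and there it lay in the upper part of the list. In PFC the ranks were between 50451 and 74192, and in the hypothalamus they were 23696 and 27044. In the RefSeq genome sequence 10.6% of the bases spanned by the 12 peaks are masked as repeats, and 0.0% of the 27 common bases are.

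By treatment, the 12 Hoxa7 libraries were 6 MOR-LPS, 2 SAL-LPS, 4 SAL-SAL and 0 MOR-SAL, with 7 from females and 5 from males. Where whole lists were tested, Hoxa7 was in range of the exact test between PFC and hippocampus (p = 1, adjusted p = 1 by Benjamini-Hochberg over all genes, of which 37.6% were called). Of the treatment comparisons, it was in range in 4 of PFC and 2 of the hippocampus. The lowest p was 0.22 for SAL-LPS against SAL-SAL in the hippocampus (exact conditional test, adjusted p = 0.458). No Hox gene passed in these comparisons, in each of which 0.0% of all genes did, and with so few marked libraries a moderate difference was not detectable.

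The library labelled PFC MOR-SAL male 13-1 stood apart from all others. Whether its label or its immunoprecipitation is right was not tested, so its values are given as those of 1 library; it stays in the PFC means and tests above and below unless said otherwise. It had a promoter peak at 36 of 39 Hox genes, all within its top list, and 275 peaks inside the 4 clusters that covered 34.9% of their length. In the other 172 lists the number of peaks inside the clusters was 0 in most, 34 in hypothalamus 1-0 and at most 15 in any other. Coverage was 43.3% of Hoxa (61 peaks), 40.1% of Hoxc (78 peaks), 36.7% of Hoxd (54 peaks) and 25.2% of Hoxb (82 peaks). These peaks made up 2.43% of its 11306 peaks.

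**Figure D3:**
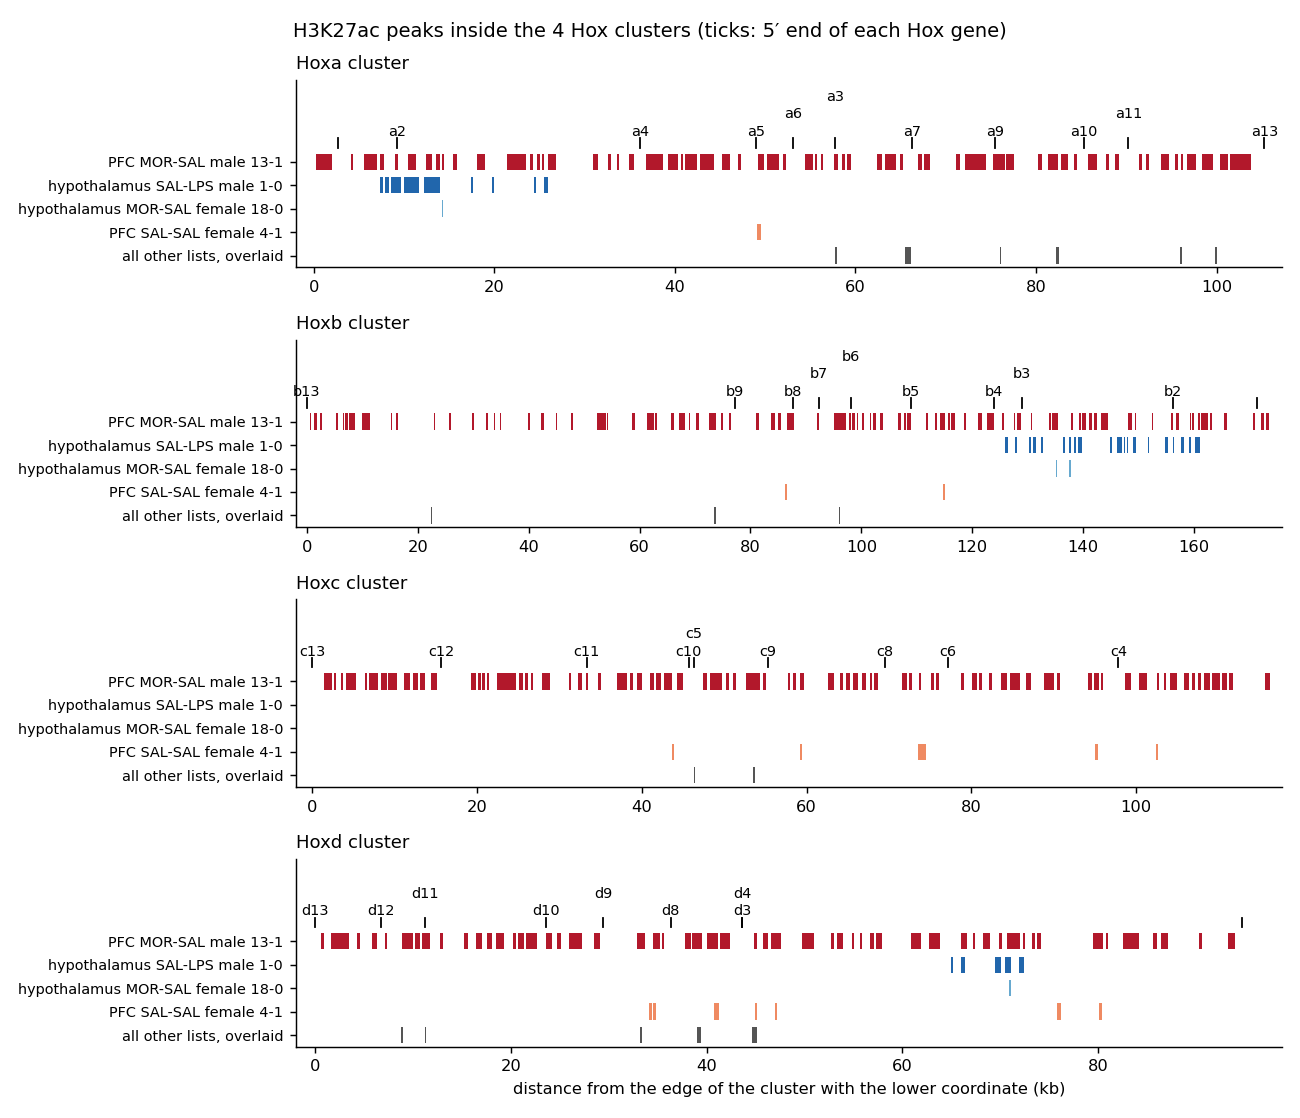
Peaks inside each Hox cluster (bars, to scale) by distance from the lower edge of the cluster (x axis, kb), in 4 single lists and in all other lists overlaid, with a tick at the 5′ end of each Hox gene (ticks of paralog group 1 are not lettered). The PFC MOR-SAL male 13-1 list has 275 peaks along all 4 clusters; the 34 peaks of hypothalamus SAL-LPS male 1-0 lie around Hoxa2, Hoxb2 to Hoxb4 and Hoxd3.

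Within PFC 13-1 the marking ran over every cluster and every position along them. Marked members were 10 of 11 in Hoxa, 10 of 10 in Hoxb, 8 of 9 in Hoxc and 8 of 9 in Hoxd. By paralog group they were 8 of 8 in groups 1 to 3 (front), 14 of 15 in groups 4 to 8 and 14 of 16 in groups 9 to 13 (rear), with median best ranks of 1284.5, 1073 and 1289.5. Over all 36, the best rank ran from 36 (Hoxa13, which patterns limbs and the genital tract) through a median of 1109 to 5546 (Hoxd13, which patterns digits). Other leading members were Hoxd10 at rank 52, Hoxb6 at 195 and Hoxb4 at 256. Those missed were Hoxd11, Hoxa11 and Hoxc5, whose nearest peaks lay 1006, 1034 and 1425 bp from a start, just outside the 1 kb window.

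The Hox peaks of PFC 13-1 were strong and broad for that list. Their median fold enrichment over local background was 5.67 against 5.06 over all its peaks, their median −log10 p was 9.36 against 7.77, and their median width was 481 bp against 337 bp. Most lay beside the starts rather than on them: 8 of the 36 marked members had a peak covering a start. Over all genes marked in that list the share with a covered start was 17.8%, and in the 42 other PFC lists it was 12.6 to 57.1% with a median of 41.0%.

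The rest of that list went with its Hox genes. It marked 4.56% of all protein-coding genes in the top list, against 10.1 to 25.3% in the 41 other PFC libraries. Of 18 transcription factors that build other organs, 15 were in its top list, among them Nkx2-5 of the heart at rank 103 and Tbx15 of the skeleton at rank 331, and in each of the 41 other libraries 0 were. Of 8 genes of hindbrain and spinal cord neurons, 6 were in its top list (Gata2 and Gata3 among them), again with 0 in each of the others. Of 20 forebrain transcription factors, 11 were, against 1 to 6 in the others. The top list is most of the 11306 peaks of PFC 13-1 but a smaller part of the other lists. In whole lists the other PFC libraries had 1 to 15 forebrain factors (median 8), a range that holds the 11 of PFC 13-1. Their whole lists had 0 to 2 of the factors of other organs and 0 or 1 of the hindbrain and spinal cord genes. Evx2 held rank 32 and Evx1 rank 230.

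Most genes that the other PFC libraries marked were absent from PFC 13-1: of 9353 genes marked in most of the other PFC lists it marked 75, Gad1 and Meis1 among them. Of 6 neuron markers 0 were in its list, including Rbfox3, which encodes NeuN, against 2 to 6 in the top lists of the others, with a median of 5. Of 9 TALE cofactors it had 1 (Meis1), against 2 to 6 in the others, with a median of 4. Among markers of other cells, 2 of 6 astrocyte genes (Gja1 and Slc1a3) and 2 of 4 endothelial genes (Flt1 and Kdr) were in its top list, with 1 of 7 oligodendrocyte genes (Olig2) and 0 of 5 microglia genes. Of the 3 excitatory and 3 inhibitory neuron genes it had 1 each, Slc17a6 and Gad1. The 41 other PFC libraries had 0 or 1 of the astrocyte genes, 0 of the endothelial genes, 0 to 7 of the oligodendrocyte genes and 0 of the microglia genes in their top lists. In whole lists, longer in most of them, the other PFC libraries had 0 to 4 astrocyte genes, 0 or 1 endothelial gene and 0 to 3 microglia genes. The 2 astrocyte genes of PFC 13-1 are within that range. Of defining markers, Cldn5 of endothelium and Gfap of astrocytes had no peak in PFC 13-1, but also none in any other PFC list. The part of other cell types in these Hox peaks was not tested.

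Of the 10000 top peaks of PFC 13-1, 109 (1.09%) overlapped a PFC consensus region, against 49.7 to 88.3% in the 41 other PFC libraries (median 83.1%). Of the top peaks of those 41 libraries, 0.160 to 1.01% overlapped a top peak of PFC 13-1. So few positions of its top list were shared with the top lists of the other libraries of its brain region. By gene and in whole lists, 468 of the 1069 protein-coding genes that it marked were also marked in another PFC list.

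**Figure D4:**
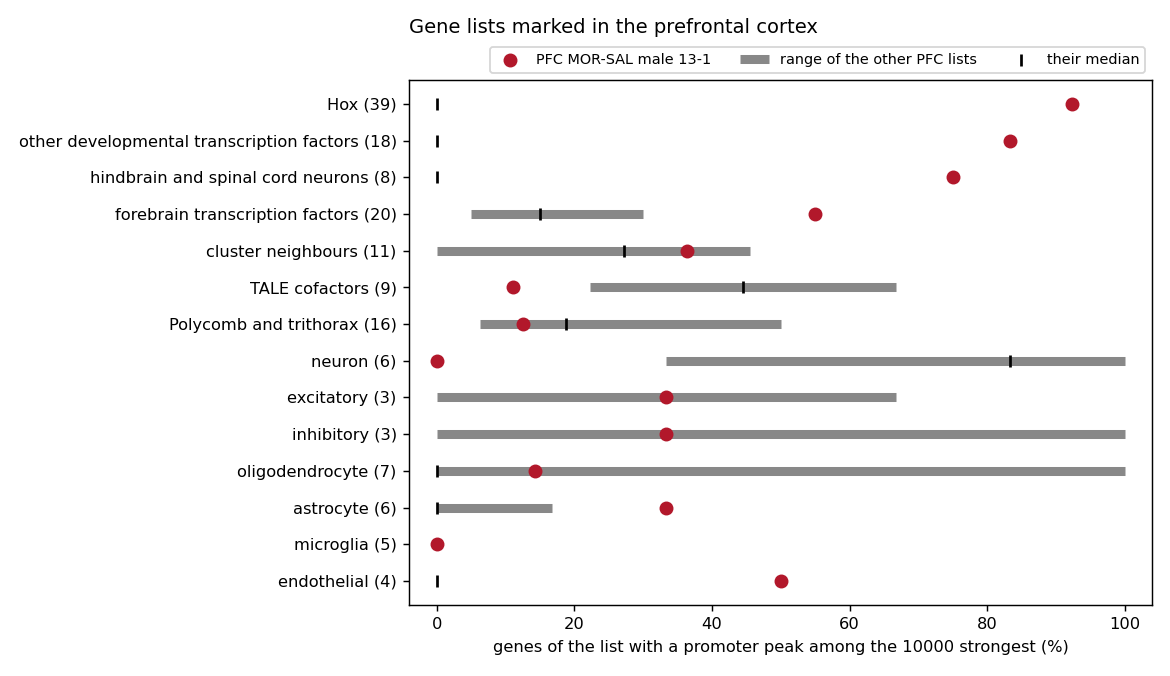
Share of each gene list with a promoter peak in the top list (x axis, %) in PFC MOR-SAL male 13-1 (red points) and in the other 41 PFC libraries (grey bars, lowest to highest; tick, median); the number of genes is given beside each list. PFC 13-1 lies above the others for Hox genes (36 of 39), other developmental transcription factors (15 of 18) and hindbrain and spinal cord genes (6 of 8), and below them for neuron markers (0 of 6).

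Hox counts were 0 or 1 in other libraries of the same animal and in those sharing a tag in their peak names. The cause of the departure of PFC 13-1 was not tested. The hippocampus and hypothalamus libraries of animal 13-1 had 0 Hox genes and 0 peaks inside the clusters, in lists of 51066 and 88357 peaks. In 7 other PFC libraries whose peak names carry the same tag, 0 Hox genes were in the top list, and 1 library had 1 in its whole list. The sample labels do not say what this tag stands for.

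The second departure was narrow and kept to the front of the clusters. Whether the dissected tissue of this library reached beyond the hypothalamus was not tested. Hypothalamus SAL-LPS male 1-0 had 34 peaks inside them: 20 over 35.1 kb from beside Hoxb4 to Hoxb2, 9 over 18.7 kb at Hoxa2 and into the neighbouring Hoxa3, 5 over 7.41 kb at Hoxd3 and 0 in Hoxc. No Hox gene of paralog group 5 or above was marked. Hoxb2 held rank 152 of 48152 peaks with a fold enrichment of 9.95, at the CG-rich stretch printed above. Hoxd3 held rank 2138, Hoxa2 rank 2767 and Hoxb3 rank 18493, so the first 3 were in its top list. Hoxa2 and Hoxb2 are known for patterning the hindbrain segments, and Hoxd3 for patterning the first vertebrae of the neck.

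Hypothalamus 1-0 had 6 of 6 neuron markers in its top list (1 to 6 in the 40 others), 0 of 18 developmental transcription factors of other organs and 0 of 8 hindbrain and spinal cord genes, which were also at 0 in each of the 40 others. Of its top peaks 43.1% overlapped a hypothalamus consensus region, against 26.2 to 65.9% in the 40 others (median 58.3%). Slc17a6, the vesicular glutamate transporter gene marked in 31 of 41 hypothalamus whole lists, had no peak in this list. Gad2 and Slc32a1 of inhibitory neurons, marked in 34.1% and 14.6% of those lists, had one. The other genes of these types went both ways: Camk2a of excitatory neurons had a peak (rank 20441), and Gad1 of inhibitory neurons had none. Gad2 (rank 3770) was in the top list, and Slc32a1 (rank 21142) was not. Of its 34 peaks inside the clusters, 15 (44.1%) overlapped a peak of PFC 13-1. The PFC and hippocampus libraries of the same animal had 0 Hox genes marked, with 2 and 0 peaks inside the clusters. Of 27 other hypothalamus libraries with the same tag in their peak names, 0 had a Hox gene in the top list, and 2 had 1 in the whole list.

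A further pair of lists had peaks inside the clusters at low ranks. Hypothalamus MOR-SAL female 18-0 had 4, nearest to Hoxa2, Hoxb3 and Hoxd3, with ranks of 20692 to 50088 of 69343. Of these, 2 overlapped a peak of hypothalamus 1-0, which gave the Hoxd3 stretch printed above, and all 4 overlapped a peak of PFC 13-1. PFC SAL-SAL female 4-1 had 15 peaks spread over all 4 clusters at ranks of 19761 to 64417 of 64743, of which 12 overlapped a peak of PFC 13-1. It had 5 of 6 neuron markers in its top list, like the other PFC libraries. Since the peaks of PFC 13-1 cover 34.9% of the clusters, some overlap can arise from that alone, and how much was not tested.

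Between brain regions, no Hox gene could be called. The exact test compared the presence of a top-list promoter peak within strata of treatment and sex, for genes marked in 10 to 90% of the libraries compared, and 0 of the 39 Hox genes entered it in any of 6 comparisons. Among the genes that did, 53.3% were called between PFC and hippocampus, 43.7% between PFC and hypothalamus, 36.6% between PFC and striatum, 15.0% between hippocampus and hypothalamus, 12.8% between hippocampus and striatum and 6.24% between hypothalamus and striatum (adjusted p below 0.05). Many animals gave several regions. Paired within animals by an exact McNemar test, which uses fewer libraries, the shares called were 27.8, 17.1 and 17.1% for PFC against hippocampus, hypothalamus and striatum, 0.0732% for hippocampus against hypothalamus, 2.48% for hippocampus against striatum and 0.0130% for hypothalamus against striatum, again with 0 Hox genes tested. When every gene with a mark in at least 1 library was let in, 36 Hox genes or fewer were tested per comparison. Of these 0 were called and 0 had an unadjusted p below 0.05, and of all genes so tested 14.7% were called. Most of the Hox genes entered through the list of PFC 13-1 alone. With so few marked libraries the test could hardly reach such a p, so no conclusion is drawn from it.

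Between treatments there was likewise no call. Whole lists with at least 1 Hox gene numbered, for MOR-LPS, 3 of 14 for PFC, 2 of 10 for each of hippocampus and hypothalamus, and 0 of 15 for striatum. They numbered 1 of 9, 0 of 11, 1 of 12 and 0 of 7 for MOR-SAL in the same order of regions, 2 of 11, 0 of 12, 1 of 11 and 0 of 13 for SAL-LPS, and 3 of 9, 3 of 11, 0 of 8 and 0 of 10 for SAL-SAL. In the 16 comparisons of MOR-LPS with SAL-LPS, MOR-SAL with SAL-SAL, SAL-LPS with SAL-SAL and MOR-LPS with MOR-SAL, 0 Hox genes entered the exact test. The share of genes called was 0.0% in each of the 16, with 1.23 to 12.5% of genes at an unadjusted p below 0.05, so treatment calls were absent over all genes and not at Hox genes in particular. With every gene marked at least 1 time let in, 0 Hox genes were called in 80 tests and 0 had an unadjusted p below 0.05 (0.0% of all genes called). In each of these tests the Hox gene was marked in 1 library only. Such a test could hardly reach that p, so no conclusion is drawn from it. Treatment groups share control animals between comparisons.

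The machinery around the Hox genes was marked in the same libraries. Of 9 TALE cofactors, a median of 4 were in the top list in PFC and 2 in each of the other 3 regions. Over the 171 lists Pknox2 was marked in 165 and Pknox1 in 148, and Pbx3 in 58. Whole lists marked Meis1 at shares of 81.4% (PFC), 60.0% (striatum), 26.8% (hypothalamus) and 6.82% (hippocampus). All 16 Polycomb and trithorax genes were marked in at least 1 list: Jarid2, a cofactor of the methylating complex, in 161, Eed, a core subunit of it, in 153, Bmi1, of the ubiquitinating complex, in 20, and Cbx2, a reader of the methyl mark, in 12.

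Regulators of other organs and of the hindbrain were also seldom marked. Of the 18 transcription factors of other organs, 13 were never marked in the 171 lists and the most often marked, Nkx2-5, was marked in 2. Of the 8 hindbrain and spinal cord genes 7 were never marked. Each of the 20 forebrain factors was marked in at least 1 list, with Cux1 of upper cortical layers marked in 119. The lowest of the 20 were Nkx2-1, a regulator of the ventral forebrain and hypothalamus, and Lhx6, of interneurons, with 6 each.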

How the data were processed

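Peak lists of 174 H3K27ac libraries were used; 32 input libraries have no list here. Reads had been trimmed (Trim Galore 0.6.7), mapped to mm10 (Bowtie2 2.4.5) and cleared of duplicates (SAMtools 1.15.1) by the authors, whose MACS2 2.2.7.1 calls for single libraries used a q-value cutoff of 0.05. The deposited −log10 p, −log10 q, fold enrichment (a ratio over local background) and score come from MACS2 as the authors ran it and served only to rank, filter or describe peaks within 1 list. Consensus lists were also deposited (DiffBind 3.10.1) and hold positions only. Lists held 4371 to 143527 peaks. Read counts per region were not used, so presence of a peak was tested and no count model was run.

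The hippocampus SAL-LPS male lists 1-2 and 5-2 were identical and counted once. PFC SAL-SAL female 9-2 had under 10000 peaks and was left out of top lists and the tests on them. PFC MOR-LPS female 12-2 holds peaks named for 12-0, and the label was used. Analyses used Python 3.11.15, pandas 2.3.3, NumPy 2.4.6, SciPy 1.17.1 and matplotlib 3.10.9. Presence was compared by an exact conditional test (two-sided, hypergeometric within strata of sex and, between regions, treatment), adjusted by the Benjamini-Hochberg method over all genes tested, and tested on simulated data. A list stood apart where its top-list Hox count was at least 3 and more than 3 interquartile ranges above the upper quartile of its region. Labels give the same animal in several regions, so the regions were also compared by an exact McNemar test within animals (replicate block, 21 to 27 animals a pair). Both identical lists and the PFC list of 12-2 were left out of it.

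Members named were to be the 10 of highest mean top-list share, with every member called or marked in a list that stood apart; all but 4 of the 36 marked members tie at 0.595%, so all were counted and examples given by rank. Values of some genes are not reported here. From other lists, the genes of highest and lowest share were named; others, such as the leading ones in a single list, were chosen after their values were seen. Tbxt, on the list of developmental factors, was not matched in the annotation. Alternatives were 5000 or 20000 top peaks, ranking by fold enrichment, a −log10 q of at least 3 or 5, the gene's 5′ end only, the summit, a 5 kb window, every list counted, a looser filter, and lists that stand apart left out. The members and lists were chosen with earlier results of these data known.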

Additional observations from a re-analysis of the deposited data

Results flagged for a closer look

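Treatment groups of 4 to 10 libraries were searched for a library far from the rest of its group in the Hox count, by Dixon's ratio, in 14 combinations of group and list. The rate of about 1 in 20 by chance is for continuous values; for counts almost all at 0, a single library above 0 is always found, so the finds below describe and do not test. PFC MOR-SAL male 13-1 had 36 Hox genes with a promoter peak in the top list, and 36 in all peaks, against 0 in each of the 8 other libraries of its group. PFC SAL-SAL female 4-1 had 2 in all peaks, with 1 or 0 in the others. Hippocampus MOR-LPS male 14-2 had 1 in the top list, Hoxa7, against 0 in the 9 others. Hypothalamus SAL-LPS male 1-0, with 3 in the top list, is in a group of 11 and was not searched.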

How the results depend on the processing

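The mean Hox count per library moved by less than 1 SD in every brain region under every alternative, for top and whole lists, with 1 exception: peaks within 5 kb gave the striatum 0.0444 Hox genes in whole lists, in 2 of 45 libraries, against 0 within 1 kb. In PFC and the hypothalamus that SD is itself set by 1 library each, and several means moved by over 1.5 times. Within 5 kb the whole-list mean was 1.86 in PFC (16 libraries with any), 0.227 in the hippocampus and 0.366 in the hypothalamus, against 1.05 (9 libraries), 0.114 and 0.171, and the hippocampus top-list mean was 0.0455 against 0.0227. A −log10 q of at least 5 gave 0.0976 in the hypothalamus, and the gene's 5′ end only gave 0.0488 for its top list against 0.0732. With 20000 top peaks the PFC mean was 0 against 0.857, because the list of 13-1 is too short to enter. Leaving out the lists that stand apart, an alternative chosen after seeing the data, gave 0 in PFC and in the hypothalamus for the top list, and 0.214 and 0.0750 for whole lists. No Hox gene was called between regions or treatments under any alternative. Over all genes, 12244 calls were made in the 6 region comparisons, against 8006 with 5000 top peaks and 4845 with the replicate block, which pairs regions within animals and uses fewer libraries. The replicate block gave 0 Hox calls between regions and, with identifier prefixes as strata, 0 between treatments. Over all genes the 16 treatment comparisons gave 0 calls, and 1 with 5000 top peaks; the cause was not tested. A peak list gives presence only: acetylation below the caller's threshold cannot be seen, and with 0 to 9 libraries a region holding any Hox gene the tests have little reach.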

Other observations

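The 542 other genes with CG-rich starts that were never marked in the 171 lists were often marked in PFC MOR-SAL male 13-1: 197 of them (36.3%) had a promoter peak there, as did 36 of 39 Hox genes. Of the 1069 protein-coding genes marked in that list, 601 were marked in no other PFC list and 75 in most of them. Hox genes made up 3.37% of its marked genes and 0.178% of all protein-coding genes. These values describe 1 library and were not tested.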
